A study of Mus musculus with 19 samples.

Results

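Arg1 (arginase 1), Nos2, Mrc1, Chil3, Retnla, Cd163, Il4ra, Clec10a, Mgl2 and Acod1 are 10 genes used to describe how macrophages are polarised. They were taken by symbol from a table of 26796 genes and followed across 19 tumours. The tumours were grown in mice from Met1, a transplantable mammary tumour line of the mouse, and every mouse was given extracellular vesicles that neutrophils had shed. In 9 tumours, called DMSO, the donor neutrophils had met only the solvent DMSO, and in 10 tumours, called 27HC, they had met 27-hydroxycholesterol, a cholesterol metabolite. The comparison asks whether this treatment of the donor neutrophils changed the tumours. Each group is known only by that treatment, and the genotype, strain, sex and age of the mice and the dose and route of the vesicles are not stated in the labels. The genes were chosen by their levels in 27HC against DMSO tumours, which were known beforehand, so those differences are given as a description and no test of them supports a statement here.

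Macrophages change their transcription with the cytokines around them. Interleukin 4 and interleukin 13 act through receptors that contain the chain encoded by Il4ra and through the transcription factor STAT6, and in mouse macrophages they raise Arg1, Mrc1, Chil3, Retnla, Clec10a and Mgl2. Interferon gamma and bacterial lipopolysaccharide raise Nos2 and Acod1. Arg1 and Nos2 encode enzymes that use the same substrate, arginine, which arginase turns into ornithine and urea and the inducible nitric oxide synthase turns into nitric oxide and citrulline. In tumours, Arg1 is known both from macrophages and from other myeloid cells, and several of these genes are also expressed outside macrophages.

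Whole tumours were sequenced, with 28139419 to 41179056 expected counts per tumour, and levels are given as CPM, counts scaled to a common library size after normalisation. In such bulk samples fewer cells of a type and less RNA per cell cannot be told apart. Macrophages were present in every tumour by their markers: the summed level of 17 macrophage lineage genes was 2160 to 3806 CPM in the DMSO tumours and 1957 to 3959 CPM in the 27HC tumours. Of the epithelial genes that mark mammary carcinoma cells, Krt18 was at 36.0 to 132 CPM, while Krt8 (0.176 to 9.55 CPM) and Epcam (0.260 to 13.2 CPM) were low in all tumours. A set of 5 libraries, called low-GC libraries here, stood apart from the rest. They were DMSO 1_5, DMSO 2_3, 27HC 1_3, 27HC 1_5 and 27HC 2_3, named by the pair of numbers in their labels. Their mean transcript GC content, weighted by counts, was 49.8% to 50.0%, against 51.2% to 52.8% in the other 14 libraries. The markers of skeletal muscle and salivary gland also differed widely between tumours, from 27.4 to 4068 CPM and from 13.6 to 6272 CPM as sums over their lists. Where the 5 low-GC libraries or tumour DMSO 1_3 move a main result on the members, its value without them is given too. Such values are not given for the gene lists. The first of the label numbers, 1 or 2, has no stated meaning, and 5 DMSO and 5 27HC tumours carry a 1.

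The genes lie on 8 chromosomes of the mouse genome (GRCm38, GENCODE M21) and all are protein coding. Clec10a (chr11:70156197-70170834) and Mgl2 (chr11:70130329-70137550), paralogues that encode galactose-type lectins, are neighbours. Arg1 lies at chr10:24915221-24927484, Nos2 at chr11:78920787-78960254, Mrc1 at chr2:14229392-14332057 and Il4ra at chr7:125552120-125579474. Chil3 lies at chr3:106147554-106167564, Retnla at chr16:48842551-48844461, Cd163 at chr6:124304656-124330527 and Acod1 at chr14:103046977-103056573. Of all stretches of 31 bases in the Chil3 transcripts, 41.5% also occurred in transcripts of another gene, most of them in its paralogue Chil4, so the estimate for Chil3 depends on how reads were divided. Chil4 itself reached at most 0.0293 CPM in any tumour. The shares were 22.8% for Mgl2 and 14.8% for Clec10a, mostly with each other, 8.86% for Il4ra, 5.45% for Retnla and 0.583% for Cd163. They were 0.0% for Arg1, Nos2, Mrc1 and Acod1.

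Promoters were available for 7 of the 10 genes in RefSeq (GRCm38.p6). Those of Retnla and Mgl2 are shown as a pair whose levels correlated over the 19 tumours (Spearman's rho 0.59). Of all pairs of tested genes, 26.9% had a rho at least as large in size. Without tumour DMSO 1_3 the pair no longer passed an adjusted p under 0.05 from permutations. Shared regulation was not tested. STAT6 binds a palindrome whose arms are separated by 4 bases, TTCNNNNGAA, which reads the same on either strand. The windows searched ran from 250 bases before to 50 bases after the start site, and the 250 bases before it are printed 5′ to 3′ on the strand of the gene, with the match in capitals. They are chr16:48842359-48842608 on the plus strand for Retnla and chr11:70130107-70130356 on the plus strand for Mgl2.
Retnla: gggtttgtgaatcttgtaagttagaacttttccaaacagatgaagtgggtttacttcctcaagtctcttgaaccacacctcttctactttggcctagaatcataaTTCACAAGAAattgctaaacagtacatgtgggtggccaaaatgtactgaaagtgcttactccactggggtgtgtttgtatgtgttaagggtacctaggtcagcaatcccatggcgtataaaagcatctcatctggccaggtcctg
Mgl2: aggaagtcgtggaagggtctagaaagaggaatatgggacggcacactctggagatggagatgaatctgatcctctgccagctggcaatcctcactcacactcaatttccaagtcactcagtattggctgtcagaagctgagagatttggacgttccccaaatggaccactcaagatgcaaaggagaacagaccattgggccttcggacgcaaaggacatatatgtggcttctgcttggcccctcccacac
The Retnla promoter held TTCACAAGAA with its first base at position -145 from the start site. TTCNNNNGAA occurred in 6.95% of 32851 promoters of the same length. These letters were not in the windows of Mgl2, Mrc1, Chil3, Cd163, Il4ra or Acod1.

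Arg1 was the member with the largest fitted difference, and this difference came from 1 tumour. In the 9 DMSO tumours Arg1 had a lowest level of 4.39 CPM, a median of 6.98 CPM and a highest level of 103 CPM. In the 10 27HC tumours the lowest was 2.32 CPM, the median 6.81 CPM and the highest 19.8 CPM. The medians were close and the groups overlapped, but tumour DMSO 1_3 stood above every other tumour. Its level was 15.4 times the median of the other 18 and 5.24 times the next highest. The fitted log2 fold change of 27HC over DMSO was -1.31 (SE 0.57, 95% confidence interval -2.50 to -0.12) over all tumours. Without DMSO 1_3 it was -0.10, and DESeq2, which can replace extreme counts, gave -0.07 over all 19 tumours. Leaving out any other single tumour gave values between -1.54 and -1.21. The mean was 18.6 ± 32.1 CPM (SD, n = 9) in the DMSO group, 7.96 ± 4.07 CPM (SD, n = 8) without DMSO 1_3, and 7.45 ± 4.79 CPM (SD, n = 10) in the 27HC group.

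**Figure D1:**
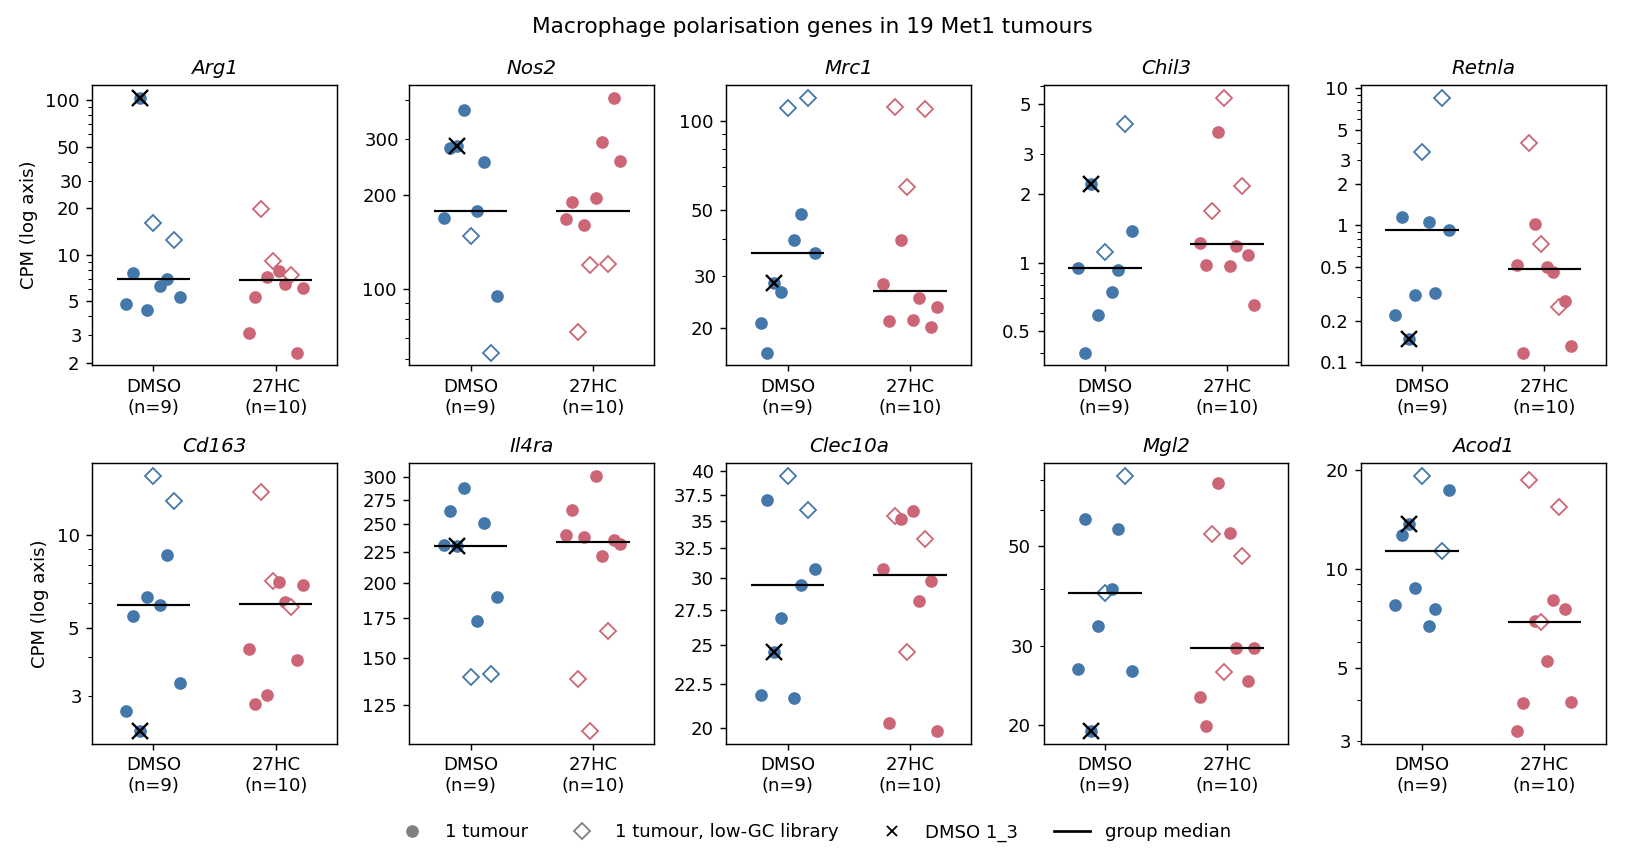
CPM of each of the 10 genes (log axis, one panel per gene) in 9 DMSO and 10 27HC tumours; points are tumours, open diamonds the 5 low-GC libraries, the cross DMSO 1_3, and bars group medians. The groups overlap in every panel, Arg1 in DMSO 1_3 stands at 103 CPM with every other tumour at or below 19.8 CPM, and the open diamonds lie highest for Mrc1 and lowest for Il4ra.

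The other genes of the set had mixed ranks in DMSO 1_3, and none but Arg1 was highest there. Its Cd163 (2.30 CPM) and Mgl2 (19.4 CPM) were the lowest of the 19 tumours, and its Retnla (0.148 CPM) ranked 17th from the highest. Nos2, at 286 CPM, ranked 4th (1.66 times the median of the other 18), Chil3, at 2.22 CPM, also 4th (2.03 times) and Acod1, at 13.7 CPM, 5th (1.78 times). The sum over the 10 members, 710 CPM, ranked 3rd. The summed level of the 17 macrophage lineage markers was 2755 CPM, ranking 9th, that of the resident scavenger macrophage markers 586 CPM, the highest of the 19, and that of the monocyte markers 1237 CPM (5th). Set against the macrophage lineage sum, Arg1 amounted to 3.76% in DMSO 1_3 and to 0.506% in the next tumour. The sum over the listed genes of arginine and polyamine metabolism, which leave out Arg1, was also the highest, at 2463 CPM. The sum over 12 hypoxia genes, 5387 CPM, was the highest as well, with Ldha, lactate dehydrogenase A, at 2655 CPM. Of 10757 protein-coding genes with at least 5 CPM in this tumour, 1686 were highest there, so a highest level was not particular to these lists. Neutrophil markers summed to 171 CPM (5th) and liver markers, a tissue rich in arginase, to 11.7 CPM (4th), with 4.30 to 15.1 CPM in the DMSO group. The part of hypoxia, of other cells and of adjoining tissue in the Arg1 level of DMSO 1_3 was not tested. Apart from this tumour, Arg1 was highest in 27HC 1_3 (19.8 CPM), DMSO 1_5 (15.9 CPM) and DMSO 2_3 (12.4 CPM), which are 3 of the low-GC libraries.

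Nos2, the inducible nitric oxide synthase, did not separate the groups. In the DMSO tumours it had a lowest level of 62.6 CPM, a median of 177 CPM and a highest of 371 CPM. In the 27HC tumours these were 72.7, 178 and 407 CPM. The fitted log2 fold change was -0.05 (SE 0.32). Within the tumours whose first label number was 1, the mean was 251 CPM with DMSO and 141 CPM with 27HC, and within those with number 2 it was 147 CPM and 254 CPM. The direction thus differed between the numbers, with an interaction of 1.62 on the log2 scale (SE 0.56), which did not pass edgeR's quasi-likelihood test (adjusted p = 0.911).

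Acod1 makes itaconate in activated macrophages. Its levels in the DMSO tumours had a lowest of 6.74, a median of 11.4 and a highest of 19.2 CPM, and in the 27HC tumours a lowest of 3.23, a median of 6.93 and a highest of 18.7 CPM. As many as 4 of the 10 27HC tumours lay below every DMSO tumour, and the ranges overlapped above that. The log2 fold change was -0.54 (SE 0.31, 95% confidence interval -1.19 to 0.10). It ranged from -0.79 to -0.41 when each tumour was left out in turn, and was -0.94 without the 5 low-GC libraries. Of the 17 macrophage lineage markers, 16 had a fitted change below 0, against 46.1% of all genes, with a median of -0.21 on the log2 scale. None of the 17 was called or had an unadjusted p under 0.05. Acod1 had a Spearman's rho of 0.76 with the summed level of these markers over the 19 tumours. Set against that sum, its median was 0.341% (0.262% to 0.611%) with DMSO and 0.253% (0.165% to 0.485%) with 27HC. The part of macrophage content in the Acod1 difference was not tested.

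Il4ra, the receptor chain for interleukin 4 and interleukin 13, was nearly level between the groups. It had a lowest level of 139, a median of 230 and a highest of 287 CPM in the DMSO tumours, and 113, 234 and 301 CPM in the 27HC tumours. The log2 fold change was 0.02 (SE 0.18, 95% confidence interval -0.36 to 0.40). Of the ligands, Il4 reached at most 1.23 CPM and Il13 at most 1.12 CPM in any tumour. Stat6 was at 219 ± 15.1 CPM (SD, n = 9) in the DMSO tumours and at 214 ± 33.5 CPM (SD, n = 10) in the 27HC tumours.

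Mrc1 encodes the mannose receptor, an endocytic receptor of macrophages. It had a lowest level of 16.5, a median of 35.8 and a highest of 119 CPM in the DMSO tumours. In the 27HC tumours the lowest was 20.1, the median 26.6 and the highest 111 CPM. Both groups held a few tumours far above the rest, all of them low-GC libraries, and the groups overlapped over nearly the whole range. The log2 fold change was -0.11 (SE 0.43) and changed sign in 2 of 19 fits that left out a tumour. Cd163, the scavenger receptor for haemoglobin and haptoglobin complexes, had a median of 5.92 CPM (2.30 to 15.6) with DMSO and 5.96 CPM (2.82 to 13.9) with 27HC. The fitted change was -0.21 on the log2 scale (SE 0.35).

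Clec10a and Mgl2, the lectin receptors, differed little between the groups. Clec10a had a lowest level of 21.7, a median of 29.4 and a highest of 39.5 CPM with DMSO, and 19.8, 30.2 and 35.9 CPM with 27HC. The fitted log2 fold change was -0.02 (SE 0.15, 95% confidence interval -0.33 to 0.29). Mgl2 had a lowest of 19.4, a median of 39.3 and a highest of 71.3 CPM with DMSO, and 20.0, 29.6 and 69.0 CPM with 27HC, and its fitted change was -0.12 (SE 0.26) on the log2 scale. The ranges of both genes nearly coincided between the groups.

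Retnla and Chil3, which encode secreted proteins of alternatively activated macrophages, had the lowest levels of the set in CPM, not scaled to length. Retnla had a lowest level of 0.148, a median of 0.929 and a highest of 8.56 CPM in the DMSO tumours, and 0.117, 0.476 and 3.97 CPM in the 27HC tumours. The highest values were those of DMSO 2_3 and 27HC 1_3, both low-GC libraries. The log2 fold change was -1.16 (SE 0.74), with -0.28 without DMSO 2_3, -2.09 without 27HC 1_3 and -0.47 without the 5 low-GC libraries. In the tumours with first label number 2 alone it was -3.07, and with number 1 alone it was 0.25. Chil3 had a lowest level of 0.402, a median of 0.945 and a highest of 4.08 CPM with DMSO, and 0.651, 1.21 and 5.33 CPM with 27HC. In 9 of the 10 27HC tumours Chil3 lay above the DMSO median, and the ranges overlapped. Its log2 fold change was 0.47 (SE 0.44), with -0.56 within first label number 2 and 1.40 within number 1.

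As a set, 8 of the 10 genes had a fitted change below 0, and the median change was -0.11 on the log2 scale. Over all 15629 genes tested, 46.1% were below 0 and the median was 0.01. All 10 members passed the filter on low counts. Across the whole table edgeR called 0.0% of genes between the groups (adjusted p under 0.05), so no member was among them, and 2.27% of all genes had an unadjusted p under 0.05. As the members were chosen by this contrast, nothing is read from that count. No member had groups that did not overlap, and 0.0% of all genes had such groups. For Arg1, Retnla, Chil3 and Acod1 no fit that left out a single tumour changed the sign. Some of these values were smaller in size than their SE. Arg1 was at -0.10 (SE 0.35) without DMSO 1_3, Retnla at -0.28 (SE 0.69) without DMSO 2_3 and Chil3 at 0.14 (SE 0.43) without 27HC 1_5. Within 1 label number alone the sign did turn for Retnla (0.25, number 1) and Chil3 (-0.56, number 2).

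**Figure D2:**
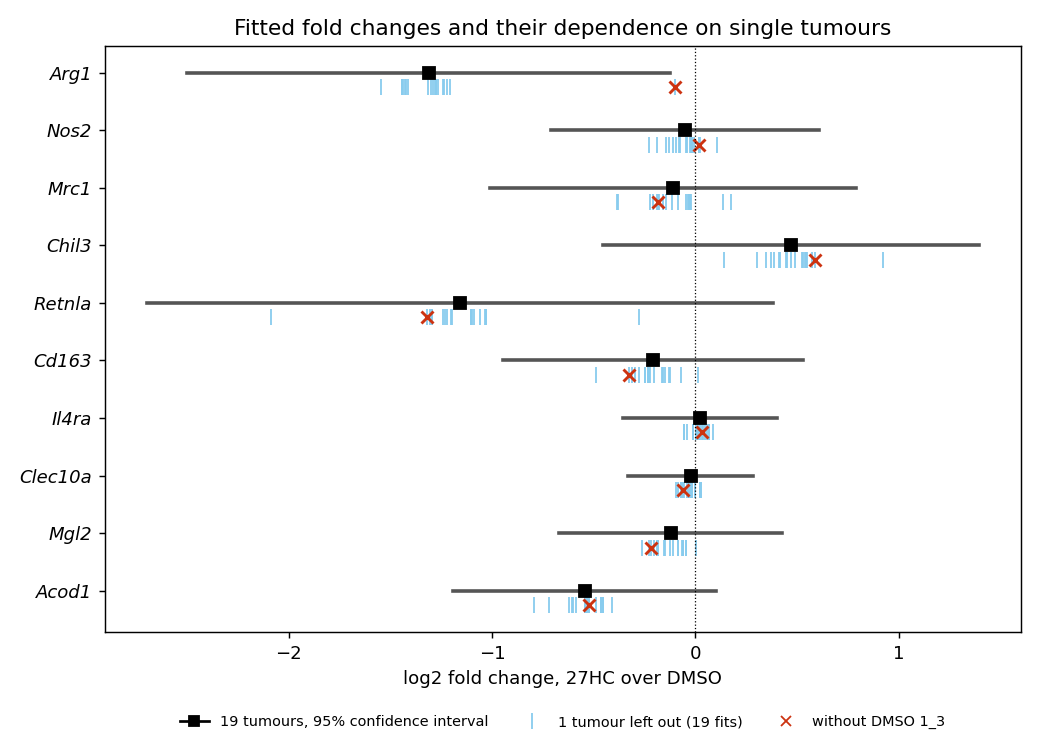
Fitted log2 fold change of 27HC over DMSO (x axis) for each gene; squares are the fit to 19 tumours with its 95% confidence interval, ticks the fits that leave out 1 tumour, and red crosses the fit without DMSO 1_3. Only for Arg1 does the red cross lie far from the square, at -0.10 against -1.31.

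The comparison between the first label numbers was not itself used to choose the genes, but it draws on the same tumour values. Between the 9 tumours with number 2 and the 10 with number 1, none of the members was called, and 0.0% of all genes were. At an unadjusted p under 0.05, 0 of the 10 members and 2.46% of all genes were found. Arg1 was the member with the largest difference, with a log2 fold change of -1.15 for number 2 over number 1 (SE 0.55, adjusted p = 1.00 in edgeR's quasi-likelihood test). DMSO 1_3 carries a 1, and without it the Arg1 value was -0.36 (SE 0.35, adjusted p = 1.00 in the same test). DESeq2 called 39 genes in this comparison, with no member among them. In the interaction between treatment and number no member and 0.0% of all genes passed. At an unadjusted p under 0.05, 3 of the 10 members (Nos2, Retnla and Chil3) and 1.43% of all genes were found. The interaction is built from the 27HC and DMSO levels by which the genes were chosen, so nothing is read from that count. The interaction was 1.62 (SE 0.56) for Nos2, -3.32 (SE 1.39) for Retnla and -1.86 (SE 0.83) for Chil3, each with an adjusted p of 0.911 in edgeR's test. A negative value means a lower change with 27HC among the tumours with number 2. Without DMSO 1_3 these values were 1.54 (SE 0.58), -3.08 (SE 1.41) and -2.38 (SE 0.83). Without the 5 low-GC libraries they were 1.38 (SE 0.44), -1.42 (SE 1.07) and -1.14 (SE 0.78), and Nos2 and Mrc1 were then the members with an unadjusted p under 0.05. None was called in either fit. Without those 5 libraries the Mrc1 interaction was -1.29 (SE 0.30, adjusted p = 0.869 in edgeR's test), against -0.97 (SE 0.88) over all tumours.

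The members differed in how much they varied. The within-group SD of log2 CPM of Retnla exceeded that of 98.7% of the genes tested, and that of Arg1 exceeded 96.1%. Without DMSO 1_3, Arg1 stood at 80.6%. Mrc1 stood at 92.5% over all tumours and at 68.6% without the 5 low-GC libraries. Il4ra stood at 40.1% and Clec10a at 24.3%, and without the 5 low-GC libraries at 16.4% and 43.8%.

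Per kilobase of the longest coding transcript, Nos2 was the most abundant member, at 48.0 ± 23.0 CPM per kilobase (SD, n = 19), followed by Il4ra at 40.6 ± 10.3. These neighbours could not be ordered, since Nos2 was above Il4ra in 10 of 19 tumours. Mgl2 (24.0 CPM per kilobase) was above Clec10a (12.7) in all 19 tumours, and Clec10a was above Mrc1 (8.87) in 14. Mrc1 was above Arg1 (8.61) in 16 tumours, although their means nearly coincided, as the Arg1 mean holds DMSO 1_3. Acod1 (3.72) came next, above Retnla (2.12) in 18 tumours. Retnla was above Cd163 (1.47) in 7 tumours and Cd163 above Chil3 (1.08) in 12, so these lowest members did not form a firm order. The order depends on the transcript assumed: with the median coding transcript Il4ra ranked first, Clec10a passed Mgl2 and Chil3 passed Cd163.

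Much of the variation of Mrc1, Il4ra and Nos2 moved with the 5 low-GC libraries. Mrc1 was 102 ± 24.0 CPM (SD, n = 5; 59.7 to 119) in them and 28.2 ± 9.27 CPM (SD, n = 14; 16.5 to 48.4) in the other tumours. Il4ra was 140 ± 18.8 CPM (113 to 166) against 240 ± 33.8 CPM (173 to 301). For these 2 of the 10 members the ranges did not overlap, Mrc1 being higher and Il4ra lower, and 23.9% of all genes were separated in this way. The share among the members is thus near that of all genes. Nos2 was 0.443 times as high in the low-GC libraries (104 against 236 CPM), with overlap. Means were 6.64 times as high for Retnla, 2.36 for Chil3, 2.26 for Cd163, 1.77 for Acod1, 1.31 for Mgl2, 1.21 for Clec10a and 1.02 for Arg1. Without DMSO 1_3 the ratio for Arg1 was 2.28, and all 5 low-GC libraries lay above the median of the other 14. The Retnla ratio was 4.11 without DMSO 2_3, and 1 of the 5 low-GC libraries, 27HC 2_3 at 0.251 CPM, lay below the median of the other 14 (0.387 CPM). The transcripts of Mrc1 have a GC content of 39.6% and those of Il4ra 56.1%, against a median of 50.8% over the genes tested. Across the 19 tumours Spearman's rho with library GC content was 0.86 for Il4ra, -0.71 for Mrc1 and 0.68 for Nos2. Each gene is itself part of the library whose GC content was measured. Within the other 14 tumours rho was 0.70, -0.30 and 0.30. Library GC content and the composition of these tumours cannot be told apart here, and the low-GC libraries were spread over both groups, 2 with DMSO and 3 with 27HC.

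**Figure D3:**
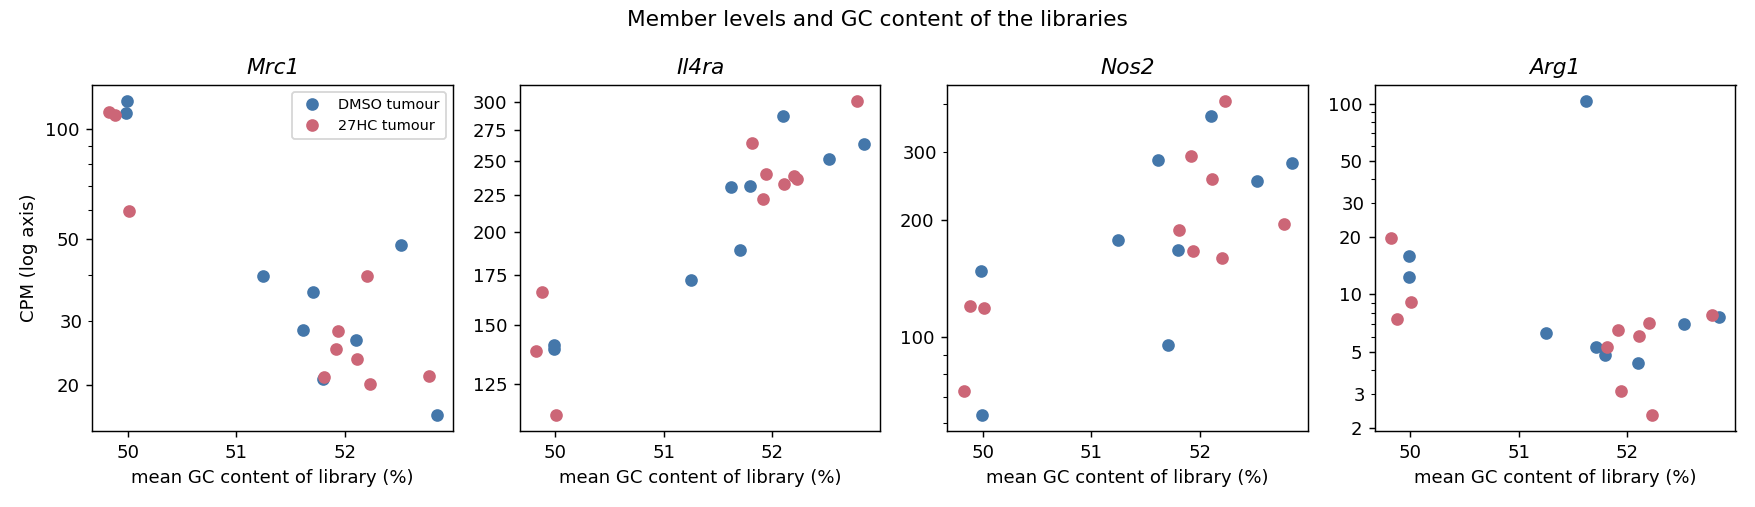
CPM (log axis) of Mrc1, Il4ra, Nos2 and Arg1 against the mean GC content of the library (%), one point per tumour, coloured by group. The 5 libraries at or below 50.0% are the highest for Mrc1 and the lowest for Il4ra, while for Arg1 the extreme point, DMSO 1_3, lies among the other 14.

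Of the 45 pairs of members, 9 correlated across the 19 tumours (Spearman, 100000 permutations, Benjamini-Hochberg adjusted p under 0.05), 5 positively and 4 negatively. That is 20.0% of the pairs, and 26.9% of all pairs of tested genes had a rho at least as large in size as the weakest of them, 0.59. Within the 14 tumours without the low-GC libraries, 0 of the 45 pairs passed. The 6 pairs among Nos2, Mrc1, Chil3 and Il4ra were all called over 19 tumours. Mrc1 and Il4ra had a rho of -0.70 over 19 tumours and -0.30 over the 14, and Nos2 and Mrc1 had -0.73 and -0.40. Nos2 and Il4ra had 0.64 and 0.19. Each of these relations was smaller within the 14.

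The other 3 pairs joined Retnla, Clec10a and Mgl2. Retnla and Clec10a had a Spearman rho of 0.70 over 19 tumours (permutation p = 0.00127, adjusted p = 0.0195) and a Pearson r of 0.66 (permutation p = 0.00185). Without the 2 tumours farthest from the median of Retnla, DMSO 2_3 and 27HC 1_3, r was 0.63. In tumours with first label number 1 rho was 0.87, and in those with number 2 it was 0.38. Within the 14 tumours it was 0.69 (permutation p = 0.00794, adjusted p = 0.357), the largest of the 45 in size there, and 4.47% of all gene pairs reached that size, 3.02% with a positive rho. Retnla and Mgl2 had a rho of 0.59 over 19 tumours (permutation p = 0.00977, adjusted p = 0.0488) and 0.60 over the 14, with r = 0.62 (permutation p = 0.00451) and r = 0.46 without the same 2 tumours. Its rho was 0.78 with first label number 1 and 0.30 with number 2, and without DMSO 1_3 it was 0.53 and no longer called (adjusted p = 0.0624 from permutations). For Clec10a and Mgl2 the values were rho 0.60 (permutation p = 0.00788, adjusted p = 0.0471) and 0.42 over the 14, with r = 0.66 (permutation p = 0.00258), and r = 0.62 without 27HC 2_5 and 27HC 1_2. Reads of these paralogues can be exchanged, as their transcripts share 419 stretches of 31 bases. These 3 pairs also passed on residuals from library GC content. So did Mrc1 with Mgl2 (rho 0.77, adjusted p = 0.0117 from permutations) and Mrc1 with Clec10a (rho 0.71, adjusted p = 0.0162 from permutations). Without that correction these Mrc1 pairs had a rho of 0.36 and 0.33 over 19 tumours and were not called. Within the 14 tumours without the low-GC libraries their rho was 0.20 and -0.01, and neither was called.

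Arg1 was in none of the 9 pairs. Its largest rho was with Mrc1, at 0.57 (permutation p = 0.0118, adjusted p = 0.0531), and 0.21 within the 14 tumours. Without DMSO 1_3, Arg1 was in called pairs with Cd163 (rho 0.70), Mgl2 (0.64), Retnla (0.63), Mrc1 (0.62) and Clec10a (0.59). The adjusted p of these pairs, from permutations, ran from 0.0175 to 0.0352. Those of Arg1 with Nos2, Chil3, Il4ra and Acod1 were not called in that set of tumours. Arg1 and Nos2, which compete for arginine, had a rho of -0.38 over 19 tumours and 0.03 over the 14. The count of called pairs depended on single tumours: it was 15 without DMSO 1_3 and 0 without any one of DMSO 1_5, DMSO 2_3 or 27HC 1_3. It was 3 without DMSO 1_4 and 2 without any one of 27HC 1_2, 27HC 1_5 or 27HC 2_3.

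**Figure D4:**
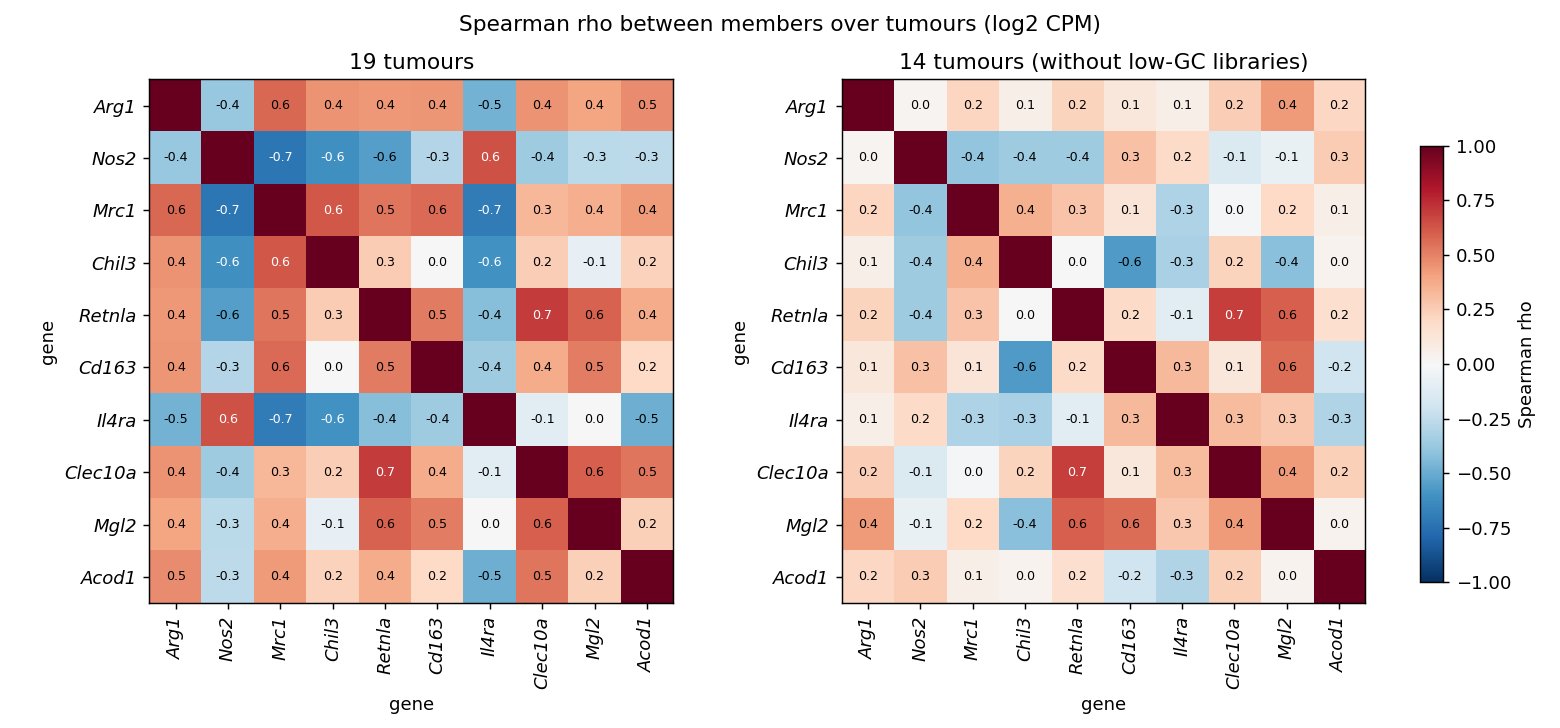
Spearman rho of log2 CPM between each pair of the 10 genes over 19 tumours (left) and over the 14 tumours without the low-GC libraries (right); colour and the rounded number both give rho. The block of strong values among Nos2, Mrc1, Chil3 and Il4ra is paler on the right, and Retnla with Clec10a is at 0.69.

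The genes whose levels were most like those of each member, among 12113 protein-coding genes and over the 19 tumours, were found by Spearman's rho. The points share library depth and GC content, and the values are a description. For Arg1 they were Ccl9, a chemokine of myeloid cells (rho 0.84), Col20a1, a collagen (0.83), Slc1a3, a glutamate transporter (0.78), Uqcrc2, a subunit of respiratory complex III (0.77), and Osgepl1 (0.77). Over the 14 tumours Ccl9 and Arg1 had a rho of 0.76. For Nos2 they were Pnpla2, the adipose triglyceride lipase (0.92), Hmox1, haem oxygenase 1 (0.91), and Gprc5b (0.90). For Acod1 they were Apol10b (0.90), Irgm2, an interferon-inducible GTPase (0.89), and Cxcl10, an interferon-induced chemokine (0.88). For Mgl2 they were Itgax, the integrin CD11c (0.85), H2afy (0.83) and Csf1r, the receptor for macrophage colony-stimulating factor (0.80). For Clec10a they were Cd22, a receptor of B cells (0.88), Cfb, complement factor B (0.87), and Trim35 (0.86). For Retnla they were She, Scimp and Rab23 (0.86, 0.82 and 0.81), for Cd163 Bmper, Usp27x and Serpina3n (0.85, 0.84 and 0.83), and for Chil3 Slc25a27, Swt1 and Brca2 (0.83, 0.81 and 0.80). For Mrc1 (B3galnt2, Ufsp2 and Wdr3, rho 0.94, 0.94 and 0.93) and Il4ra (Arhgef7, Slc5a6 and Dhx38, 0.96, 0.96 and 0.95) the values were the largest, and 25.3% and 30.1% of all genes had a rho of at least 0.6 with them. For Nos2 the share was 23.3%. Without the 5 low-GC libraries these shares were 2.83% for Mrc1, 3.58% for Il4ra and 1.17% for Nos2. For Arg1 the share was 2.43% and for Mgl2 1.87%, and without those libraries 2.96% and 3.21%.

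The pathways around the members showed no called gene between the groups. Of 32 genes of the interleukin 4 and interleukin 13 response, 30 were tested, 14 above and 16 below 0, with a median of 0.00 on the log2 scale. The smallest unadjusted p was that of Il1rn, the interleukin 1 receptor antagonist, at 26.7 ± 6.65 CPM (SD, n = 9) in the DMSO tumours against 19.9 ± 6.14 CPM (SD, n = 10). On the log2 scale the chemokine gene Ccl17 had a change of 0.48 (SE 0.29), Ccl22 of -0.29 (SE 0.19) and Ptgs1, cyclooxygenase 1, of 0.11 (SE 0.09). Of the 33 tested genes of the interferon gamma and lipopolysaccharide response, 24 were below 0, with a median of -0.14. In this list the smallest p-values were those of Tlr2, a receptor for bacterial lipoproteins (-0.21, SE 0.13), Ifngr2, a chain of the interferon gamma receptor (-0.22, SE 0.14), Irf1, an interferon-induced transcription factor (-0.20, SE 0.15), and Gbp2, an interferon-induced GTPase (-0.35, SE 0.26). Of the 23 tested genes of arginine and polyamine metabolism, 14 were above 0, with a median of 0.01. Oat, ornithine aminotransferase, which acts on the product of arginase, had -0.20 (SE 0.10), Slc7a7, an amino acid transporter subunit, -0.19 (SE 0.12), Nos1, the neuronal synthase, 0.30 (SE 0.22) and Azin1, the antizyme inhibitor, -0.17 (SE 0.13). Arg2, the mitochondrial arginase, was at 1.02 ± 0.425 CPM with DMSO and 1.10 ± 0.299 CPM with 27HC. All 12 hypoxia genes were below 0, with a median of -0.11 on the log2 scale, and among them Pdk1, pyruvate dehydrogenase kinase 1, had -0.37 (SE 0.11), Pgk1, phosphoglycerate kinase 1, -0.27 (SE 0.13), Ldha -0.20 (SE 0.23) and Ero1l, an oxidase of the endoplasmic reticulum, -0.16 (SE 0.16). None of these list genes was called.

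Markers of other myeloid cells stood beside these values. Of the 13 tested neutrophil markers 9 were above 0, with a median of 0.61, and their sum was 110 to 175 CPM with DMSO and 77.0 to 235 CPM with 27HC. Ly6g, the defining neutrophil marker, reached at most 0.730 CPM and was at 0 in 4 tumours. Monocyte markers had 5 above and 5 below 0 (median 0.00). Of 12 markers of resident scavenger macrophages, 10 were below 0, with a median of -0.13, and the sums were 386 to 586 CPM and 398 to 534 CPM. Of 12 dendritic cell markers 9 were below 0 (median -0.09). The part of these cells in the values of the members was not tested.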

How the data were processed

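RNA of 19 whole tumours was sequenced from stranded poly(A) libraries, per the labels' protocols. The authors deposited expected counts per gene, and kallisto 0.44.0, limma, edgeR and the build GRCm38 are named, without roles, in the submitters' processing notes. The way transcripts were summed to genes was not found in the labels. These expected counts were rounded to whole numbers before fitting.

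Counts were fitted with edgeR 4.0.16 (quasi-likelihood test, TMM, filterByExpr; R 4.3.3), which kept 15629 genes and left out 11167, with Benjamini-Hochberg adjustment over all of them. The 27HC and DMSO groups were compared without covariates, and the first label number and its interaction with treatment were tested in models holding both. CPM uses normalised library sizes, and log2 CPM a prior count of 2. Symbols were found for 26290 of 26796 identifiers. Correlations used 100000 permutations, which can give a p of 1e-05 at the smallest. The labels do not say that tumours came from separate mice, so p-values measure the spread between these samples, which may be technical. No library was a duplicate: the lowest chi-square per degree of freedom within a group was 42.3. The fit was tested on simulated data.

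The members and lists were chosen with earlier results of these data known. Named genes were the members, the 4 of smallest p in each pathway list, and the 5 (Arg1) or 3 (other members) most alike by Spearman's rho among protein-coding genes of at least 1 log2 CPM. Il4, Il13, Stat6, Arg2, Chil4, Ly6g, Krt8, Krt18 and Epcam were named for their role. The lists were the interleukin 4 and 13 response, the interferon gamma and lipopolysaccharide response, arginine and polyamine metabolism, hypoxia, and markers of macrophages, resident scavenger macrophages, monocytes, dendritic cells, neutrophils, eosinophils and mast cells, T cells, epidermis, fat cells, liver, lung, salivary gland and skeletal muscle. The marker lists not described with the members had medians, on the log2 scale, of -0.29 (eosinophils and mast cells), -0.15 (T cells), 0.02 (epidermis), -0.17 (fat cells), -0.54 (liver), 0.20 (lung), -7.86 (salivary gland) and 1.30 (skeletal muscle), with no gene called. The salivary gland value rests on 3 tested genes. The median salivary sum was 21.8 CPM with DMSO and 19.3 CPM with 27HC, and the highest sums were 6272 and 1068 CPM. For skeletal muscle the median sums were 58.9 CPM with DMSO and 243 CPM with 27HC, and the highest 1582 and 4068 CPM. Alternatives were DESeq2 1.42.0, limma-voom (limma 3.58.1), RLE size factors, other filters and prior counts, the replicate block, each label number alone, Pearson correlation and leaving out each tumour. Leaving out the 5 low-GC libraries, correcting for library GC content, and the values without DMSO 1_3 in the label number comparison or without single tumours in the low-GC ratios were chosen after seeing the data.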

Additional observations from a re-analysis of the deposited data

Results flagged for a closer look

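Within a group, the highest tumour was far from the others, by the size of its gap to the next relative to the range of the group, for 6 of the 20 combinations of member and group. If values were normally distributed, chance would flag about 1 in 20 groups, a rate that need not hold for CPM. On log2 CPM 1 of the 20 combinations remained, Arg1 in the DMSO group. Arg1 stood apart in DMSO 1_3 at 103 CPM and in 27HC 1_3 at 19.8 CPM. Retnla stood apart in DMSO 2_3 at 8.56 CPM and in 27HC 1_3 at 3.97 CPM. Chil3 stood apart in DMSO 2_3 at 4.08 CPM, and Cd163 in 27HC 1_3 at 13.9 CPM. Of these tumours, DMSO 2_3 and 27HC 1_3 are low-GC libraries and DMSO 1_3 is not. The cause was not tested.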

How the results depend on the processing

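No gene was called between 27HC and DMSO in any alternative fitted with edgeR or limma-voom, or with any 1 tumour left out (0 to 0 genes). The same held for the label numbers and their interaction under RLE size factors, no filter, limma-voom, library GC content as covariate, and without the 5 low-GC libraries or any 1 tumour. Other filters and the replicate block were run for treatment only. With DESeq2, 2 genes were called for treatment, 39 for the label number and 0 for the interaction, and the cause was not tested. The numbers in the labels did not pair the tumours: over 9 pairs of equal number the correlations of deviations ran from -0.43 to 0.78, 5 were over 0.1, and 3 of 18 tumours correlated best with their own number. With the replicate block 0 genes were called, and the change of Arg1 was -0.59. The count of correlated member pairs, 9, was 16 with Pearson correlation, 5 on residuals from library GC content, 0 without the 5 low-GC libraries (fewer tumours), and 0 to 15 with each tumour left out. Over 29 alternatives the sign turned in 0 for Arg1 and Acod1, in 1 each for Cd163, Chil3 and Retnla, in 2 for Mgl2, 3 for Mrc1, 6 each for Nos2 and Clec10a and 7 for Il4ra. Members below 1 CPM, such as Retnla and Chil3 in many tumours, rest on few counts.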

Other observations

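Arg1 was not the only gene that stood out in tumour DMSO 1_3, and the genes named here were chosen after their values were seen. Of 10757 protein-coding genes with at least 5 CPM in this tumour, 1686 were highest there and 7 were at least 2-fold above the next tumour. Arg1 ranked first by this ratio. The second was Mmp8, a collagenase of neutrophils, at 10.8 CPM with 3.33 CPM in the next tumour. Hbb-bs, a beta globin, was at 701 CPM with 263 CPM in the next, and Pf4, platelet factor 4, at 19.9 CPM with 7.86 CPM in the next. Ltb4r1, a leukotriene B4 receptor, was at 7.60 CPM with 3.44 CPM in the next, Gstm1, a glutathione transferase, at 55.6 CPM with 25.2 CPM, and Adam8, a membrane protease of myeloid cells, at 165 CPM with 77.0 CPM. Hmox1, the gene second most like Nos2, was also highest in this tumour, at 714 CPM with 418 CPM in the next.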
